A study of Mus musculus with 9 samples.

Results

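The 8 genes described here, Il1f9, Arhgap9, Mgam, Ecrg4, Adarb2, Cited1, Lamp5 and Myh1, were put together as less known markers of the lumbar motor pool, out of 18193 genes measured. They were picked because their intensity was high in lumbar motor neurons and low in oculomotor motor neurons, and for most of them also low in the dorsolateral pool. Their levels in the 3 pools are therefore a description, and no test of them was made. All probe sets that the array annotation gives to 1 of these genes alone were taken, 17 in all. Arhgap9 had 4, Ecrg4, Adarb2 and Myh1 had 3 each, and the other 4 genes had 1 each. Where a gene had several, the probe set with the highest mean over all arrays represents it.

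The samples were motor neurons cut by laser from frozen spinal cord and midbrain of untreated wild-type male C57BL/6J mice at postnatal day 7. Neurons of lumbar level 5 (L5) lie at a level that serves the limb, those of the dorsolateral nucleus at L6 (DL) serve pelvic sphincters, and those of the oculomotor nucleus (OMN) move the eye. Each pool had 3 arrays, of about 200 neurons per animal for each pool, stained with cresyl violet, and the study set the pools beside each other because they differ in vulnerability in amyotrophic lateral sclerosis. Nothing in the labels says how a neuron was assigned to its pool beyond position and stain. The material was captured in bulk, so fewer cells that express a gene and less RNA per cell cannot be told apart.

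Motor neuron genes differed in brightness. Slc18a3, Slc5a7, Isl1, Prph and Ache were above noise on every array. Slc5a7, the choline transporter, lay between 3415 and 4979 in L5, between 2864 and 3475 in DL and between 3942 and 4192 in OMN. Isl1 was lowest in L5, at 494.7 to 749.5, against 2299 to 3128 in DL and 2084 to 2176 in OMN. Prph was highest in L5, at 10110 to 10380, against 7530 to 9228 in DL and 4571 to 5166 in OMN. The ranges of Slc18a3 and Ache overlapped between the pools. Chat, which makes acetylcholine, was represented by a probe set that lay between 1.2 and 24.5 on the 9 arrays, around the noise level of 18.3. Mnx1 and Isl2, transcription factors of spinal motor neurons, were at 80.9 to 155.6 and 53.1 to 145.3 in L5, 71.3 to 122.5 and 87.2 to 100.8 in DL and 0.9 to 3 and 4.6 to 20.7 in OMN. The noise level is the top reading among 27 control probe sets that target bacterial transcripts absent from the samples. Values at or below it have no order. Glial transcripts were present in every pool, with all 6 measured oligodendrocyte markers above noise on each array. These markers summed to 15000 to 16020 in L5, 20990 to 22890 in DL and 11700 to 13490 in OMN, without overlap. The 7 astrocyte markers summed to 15060 to 16260 in L5, 13370 to 15540 in DL and 12110 to 12770 in OMN. Among them, Gfap was at 233.3 to 392 in L5, 1074 to 2333 in DL and 12.2 to 22.7 in OMN. The part of glial RNA in the values of the genes described here was not tested.

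None of the 8 genes is a classical motor neuron gene. Il1f9 encodes interleukin-36 gamma, a cytokine of epithelia, and Ecrg4 encodes augurin, a secreted peptide precursor known from the choroid plexus. Mgam is maltase-glucoamylase, an enzyme of the intestinal brush border that releases glucose from starch. Lamp5 is a neuronal relative of the lysosomal LAMP proteins, and Arhgap9 is a GTPase-activating protein known from blood cells. Cited1 is a co-regulator of transcription that does not bind DNA itself, Adarb2 is an RNA-binding relative of the RNA editing enzymes for which no editing activity is known, and Myh1 is the IIx/d myosin heavy chain of fast muscle fibres.

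These genes were put together on their levels in the pools, and their promoters are shown first, as a description. The RefSeq table of the GRCm38.p6 build held 10 promoters, of 250 bases before to 50 bases after a transcription start, for 7 of the 8 genes. Arhgap9 is the gene not matched. Il1f9 and Lamp5 lie on chromosome 2, and the other 5 matched genes on chromosomes 1, 6, 11, 13 and X. Both strands were searched for 4 motifs of promoters, and 0 matches overlapped. The motifs were the TATA box as TATAAA, the binding site of NF-Y as CCAAT, a homeodomain core as TAATTA and the binding site of Sp1 as GGGCGG. The promoters of Mgam and Myh1 are printed because each has TATAAA about 30 bases before the start, that of Adarb2 because it holds TAATTA beside CCAAT, and the CpG-rich promoter of Cited1 because it holds none of the 4. Capitals mark the matches on either strand.
Mgam chr6:40628581-40628880 (+ strand): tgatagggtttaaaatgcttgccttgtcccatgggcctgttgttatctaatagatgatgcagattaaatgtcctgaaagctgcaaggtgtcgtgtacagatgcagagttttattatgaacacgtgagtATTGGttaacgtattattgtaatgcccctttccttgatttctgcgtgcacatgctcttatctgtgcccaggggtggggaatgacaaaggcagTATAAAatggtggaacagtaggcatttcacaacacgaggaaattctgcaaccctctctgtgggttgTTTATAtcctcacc
Myh1 chr11:67199852-67200151 (+ strand): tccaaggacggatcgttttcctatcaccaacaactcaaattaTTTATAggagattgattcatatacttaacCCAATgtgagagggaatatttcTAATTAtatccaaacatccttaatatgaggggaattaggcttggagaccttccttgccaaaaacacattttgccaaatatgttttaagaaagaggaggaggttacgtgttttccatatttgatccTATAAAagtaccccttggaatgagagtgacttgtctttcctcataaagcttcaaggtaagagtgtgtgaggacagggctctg
Adarb2 chr13:8202616-8202915 (+ strand): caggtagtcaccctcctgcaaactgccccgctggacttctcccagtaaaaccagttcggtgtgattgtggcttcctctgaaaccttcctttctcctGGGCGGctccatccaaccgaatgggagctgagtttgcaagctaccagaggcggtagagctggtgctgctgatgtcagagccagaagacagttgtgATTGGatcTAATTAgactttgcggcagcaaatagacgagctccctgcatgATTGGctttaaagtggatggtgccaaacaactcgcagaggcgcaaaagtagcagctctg
Cited1 chrX:102250727-102251026 (- strand): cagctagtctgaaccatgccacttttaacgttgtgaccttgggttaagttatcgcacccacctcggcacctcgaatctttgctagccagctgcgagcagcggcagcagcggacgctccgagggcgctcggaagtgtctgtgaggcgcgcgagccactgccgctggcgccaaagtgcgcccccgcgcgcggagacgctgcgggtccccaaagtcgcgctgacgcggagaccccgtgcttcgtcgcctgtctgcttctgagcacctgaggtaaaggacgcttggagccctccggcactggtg

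TATAAA stood at base -30 of the Mgam promoter and at base -32 of the Myh1 promoter, counted from the start as +1. Over the 10 promoters it was found in 4, belonging to 3 genes, while 13.6% of the 32851 mouse promoters in the table held it. CCAAT was found in promoters of 5 genes (37.4% of all promoters), TAATTA in those of 2 genes, Adarb2 and Myh1 (5.29%), and GGGCGG in those of 2 genes, Adarb2 and Cited1 (35.7%). The promoters of Il1f9 and Ecrg4 held none of the motifs. The ratio of observed to expected CpG ran from 0.0541 at Il1f9 to 1.02 at the printed Cited1 promoter, with a median of 0.323 against 0.384 over all promoters. No motif was found in all 10 promoters.

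The secreted factors differed in how sharply they marked L5. Il1f9 had intensities of 200.5, 242.9 and 164.8 in L5, against 15.3, 9.9 and 4.3 in DL and 14.6, 5.1 and 0.9 in OMN. Every DL and OMN array lay below the noise level, so that L5 was at least 10.9-fold higher than either. Folds here are ratios of geometric means, with values below noise raised to it where the fold is a bound. Ecrg4 had 639.1, 944.9 and 951.5 in L5, 142.6, 153 and 88.2 in DL and 23.6, 32.2 and 25.9 in OMN. Its 3 pools formed steps that did not overlap, with DL in between. L5 was 6.68-fold above DL and 30.8-fold above OMN, and DL was 4.61-fold above OMN. The log2 difference between DL and OMN, on the log2(intensity + 16) scale used for all differences here, was 1.71 ± 0.25 (SE of the fit, n = 3 arrays per pool).

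The other probe sets of Ecrg4 showed the same order with smaller steps. Probe set 1423261_at had 220.9, 249.1 and 280.1 in L5, 65.4, 36.6 and 48.6 in DL and 39.8, 14.1 and 5 in OMN. DL and OMN overlapped there, since the lowest DL array was below the highest OMN array. In 1440780_x_at the values were 59, 86.1 and 107.7 in L5, 30.8, 33.6 and 25.1 in DL and 24.2, 12.4 and 26.6 in OMN. The step of DL above OMN that the brightest probe set showed thus had an overlap in both of the others.

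Markers of the tissues these secreted factors are known from are given beside them. Of 7 measured choroid plexus markers, 4 lay at or below noise on all L5 arrays, and their summed intensity was 110.8 to 133.4 in L5, 105.3 to 141.5 in DL and 120.2 to 136 in OMN. Without Otx2, which midbrain cells also express and which was at 2.4 to 9.5 in L5, 1.1 to 8.5 in DL and 58.5 to 78 in OMN, the other 6 summed to 101.3 to 131 in L5, 103.8 to 133 in DL and 58 to 64.7 in OMN. That sum, taken after the values had been seen, was higher on every L5 and DL array than on any OMN array. L5 and DL overlapped in it. On OMN arrays 1 and 3 all 6 of these choroid plexus markers were below noise, where values have no order. Clic6, an ion channel protein of that tissue, was at 13.4 to 42.5 in L5, 20.8 to 58 in DL and 1.8 to 6.2 in OMN. Folr1, the folate receptor of that tissue, did not exceed 11.7 on any array. Ttr, the most abundant choroid plexus transcript, lay between 41.6 and 56.3 in L5, 24.3 and 53.5 in DL and 10 and 41.4 in OMN. The part of these genes in the Ecrg4 values was not tested. The 10 epithelial and keratinocyte markers summed to 940.5 to 1050 in L5, 1201 to 1571 in DL and 963.2 to 1179 in OMN, mostly from Krt10 and Krt1, and 5 of them were above noise on all L5 arrays. Krt14, a keratin of basal epithelium, was at 18.5 to 34.2 in L5, 6.3 to 10.5 in DL and 31.9 to 51.1 in OMN, and Epcam, an epithelial adhesion protein, at 41 to 91.9, 8.8 to 127.7 and 101.1 to 166.8 in these pools. Krt5 and Krt8, keratins of basal and of simple epithelia, were below noise on every array. The part of epithelial RNA in the Il1f9 values was not tested.

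Mgam, the brush-border glucosidase, was not detectable above noise in DL or OMN. It had 128.3, 167.1 and 184.1 in L5, 5.3, 0.3 and 1.2 in DL and 12.2, 16.1 and 4.4 in OMN, from 1 probe set. L5 was at least 8.64-fold above each of the other pools. Of 6 enterocyte markers 5 were at or below noise on all L5 arrays, and the summed level was 35.2 to 43.8 in L5, 64.5 to 74.9 in DL and 43.8 to 101.8 in OMN. Vil1 and Fabp2, a cytoskeletal and a lipid-binding protein of enterocytes, did not pass the noise level on any array.

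Lamp5 went against the label. Its intensity was 1215.8, 1003.2 and 1196.1 in L5, 873.8, 596.6 and 1421.9 in DL and 31.6, 39 and 5.8 in OMN. Its highest value was on DL array 3, and L5 and DL overlapped, with means of 1138 ± 118 in L5 and 964 ± 420 in DL (SD, n = 3). The log2 difference of L5 to DL was 0.32 ± 0.44 (SE). It was 0.83 without DL array 3 and -0.06 without DL array 2, so its size and sign rest on which DL array is kept. The same difference was 1.08 without DL arrays 1 and 3. Against OMN, L5 was at least 40.1-fold higher and DL at least 32.0-fold higher. Lamp5 was bright in both spinal pools and dim in OMN.

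Arhgap9, the GTPase-activating protein, had 428.8, 396.5 and 228.1 in L5, 23.7, 11.7 and 62.4 in DL and 16, 17.4 and 3.7 in OMN. L5 array 3 was the lowest of its pool, and DL array 3 the highest of its own. L5 was at least 18.5-fold above OMN and at least 11.3-fold above DL. Probe sets 1436097_x_at and 1449619_s_at followed the same order within L5, with 338, 277.8 and 160.3 in the first and 259.9, 200.5 and 144.3 in the second. The dimmest probe set, 1419810_x_at, was even over L5 at 55.8, 64.5 and 65.2, and did not exceed 3.4 in DL or 4.1 in OMN. Probe sets marked _x_at or _s_at hold probes that can also match other transcripts. The probe sets that represent Ecrg4 (1460049_s_at) and Myh1 (1427868_x_at) are of these kinds.

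Arhgap9 is known from leukocytes, and the levels of leukocyte markers are given beside it. The 12 leukocyte and microglia markers summed to 3705 to 4112 in L5, 2882 to 3653 in DL and 2863 to 3584 in OMN. The sum was thus higher on every L5 array than on any DL or OMN array, and its part in the Arhgap9 values was not tested. The largest contributor was Coro1a, a cytoskeletal protein that neurons also express, at 1943 to 2528 in L5, 1702 to 2219 in DL and 1348 to 1491 in OMN. With it left out, which was decided once the levels were known, the other 11 summed to 1584 to 1793 in L5, 1180 to 1434 in DL and 1515 to 2096 in OMN, so that L5 and OMN overlapped. The median log2 difference of the 12 was -0.20 for L5 minus OMN and 0.44 for L5 minus DL. Aif1, a microglial protein, was higher on every L5 array (94.4 to 109.5) than in DL (20.2 to 74.5) or OMN (41.6 to 74.9). Ptprc, the pan-leukocyte antigen CD45, lay between 11.3 and 21.5 in L5, 3.1 and 11.3 in DL and 8.8 and 18.3 in OMN, at or near noise throughout. Csf1r, the receptor of microglia, lay between 307.4 and 362.6 in L5, 90.8 and 285.6 in DL and 145.9 and 338.5 in OMN. Against OMN, the markers C1qa, P2ry12, Itgam, Laptm5, C1qb, C1qc and Cx3cr1 went the other way. Their log2 differences for L5 minus OMN were -0.79, -0.56, -0.40, -0.38, -0.28, -0.23 and -0.18, without a call.

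The nuclear factor Cited1 had 209, 231.6 and 338.8 in L5, 14, 1.9 and 3.6 in DL and 56.7, 21.2 and 1.8 in OMN. All L5 arrays stood above all others, while the OMN arrays spread from far below noise to 56.7. L5 was at least 13.9-fold above DL and at least 9.07-fold above OMN. Adarb2 had 121.1, 172.5 and 114.3 in L5, 2.3, 13.6 and 7.1 in DL and 12.5, 14.7 and 1.8 in OMN. L5 was at least 7.30-fold above either pool. Its other probe sets were dimmer, with 36.7, 35.1 and 35.3 in L5 for 1421300_at and 58.8, 65.3 and 41.7 for 1458670_at. In DL they reached 23.5 and 21.6, and in OMN 18.5 and 19.8, which left all L5 arrays highest in both.

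Adarb2 and Lamp5 are also known as markers of a class of cortical interneurons, so markers of inhibitory neurons are given beside them. Of 9 such markers, limma called 2 above and 2 below OMN in L5, where 0.945% of all genes were called above and 1.22% below. Against DL it called Gad1 and Gad2 lower in L5, where 1.28% of all genes were called lower and 1.28% higher. Their summed intensity was 3767 to 4296 in L5, 6705 to 7715 in DL and 2413 to 3678 in OMN, highest in DL, where the brightest probe set of Adarb2 was below noise. Slc6a5, which takes up glycine at inhibitory synapses, was above OMN in L5, at 551 ± 90.2 against 22.6 ± 14.8 in OMN (limma adjusted p = 0.00184), and stood at 707 ± 248 in DL. Reln, a secreted protein of several neuron types, was higher in L5, at 1187 ± 42.9 against 123 ± 10.3 in OMN (adjusted p = 0.000468), and stood at 789 ± 94.9 in DL. Both were thus bright in the spinal pools and dim in OMN, as Lamp5 was. Their part in the Lamp5 and Adarb2 values was not tested. Gad2, which makes GABA, lay between 251 and 287.7 in L5, 2083 and 2725 in DL and 1209 and 1443 in OMN.

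Myh1 depended on 1 array and on the probe set. Its intensity was 83.5, 383.7 and 97.1 in L5, 18.4, 2 and 2.1 in DL and 3.9, 1 and 6 in OMN, by 1427868_x_at. The probes of that set can also match other transcripts. L5 array 2 stood far above the other L5 arrays, and the coefficient of variation over L5 was 90.1%, against 10.3% to 30.7% for the other 7 genes. By 1427520_a_at the values were 13.5, 87.3 and 18.1 in L5, 15.3, 0.5 and 0.5 in DL and 0.5, 1.2 and 0.8 in OMN. Among all 9 arrays, L5 array 2 alone passed the noise level there. The third probe set, 1452465_at, was at 1.5, 0.9 and 0.4 in L5, 17.4, 6.1 and 8.8 in DL and 17.2, 12.6 and 2.5 in OMN, below noise in every pool. Without L5 array 2 the log2 difference of Myh1 was 2.31 to OMN in place of 3.08, and 2.12 to DL in place of 2.88. With the mean of all 3 probe sets it was 1.31 to OMN and 1.15 to DL.

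Skeletal muscle genes moved with Myh1 on that array. Of 12 muscle markers, 10 had their highest value of all 9 arrays on L5 array 2, and 10 were above noise there, against 4 on each of the other L5 arrays, 2 to 4 in DL and 2 to 5 in OMN. Their summed intensity was 1352 on L5 array 2, 175.8 and 232.3 on the other L5 arrays, 138.4 to 232.8 in DL and 176.3 to 207.8 in OMN. Mylpf, a fast myosin light chain, was at 31.7, 342 and 82.3 in L5, and Tnnt3, a fast troponin, at 3.3, 215.3 and 4.8. The part of this muscle signal in the Myh1 values was not tested. On the other L5 arrays, where Myh1 was at 83.5 and 97.1, Mylpf and Tnnc2 (21.8 and 53.4) were above noise, and Tnnt3 and Myl1 (1.1 and 3.4) below it.

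**Figure D1:**
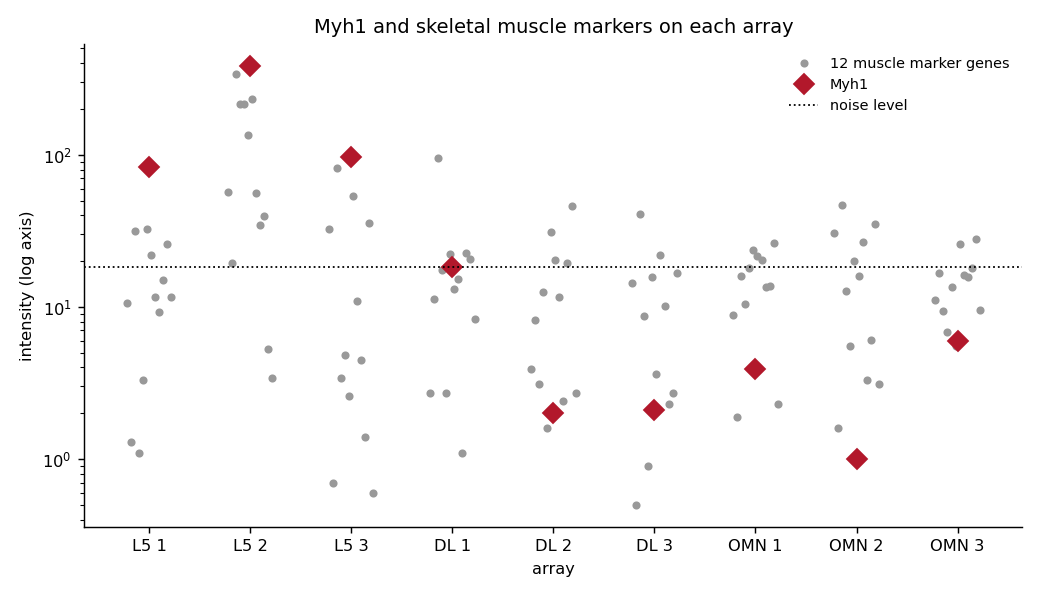
Intensity on each array (log axis) of Myh1 (diamonds) and of 12 skeletal muscle markers (grey points), with the noise level of 18.3 as a dotted line. Myh1 reached 383.7 on L5 array 2, where 10 of the 12 markers had their highest value, and 83.5 and 97.1 on the other L5 arrays.

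In all, each of the 8 genes had its 3 L5 arrays above its 3 OMN arrays, a pattern that 14.6% of all genes showed. For 7 of the 8, all but Lamp5, the L5 arrays were also above the 3 DL arrays, as they were in 13.8% of all genes, and above all 6 other arrays together, as in 6.25%. The members were picked on these values, so the counts are read no further. DL lay above OMN without overlap for Ecrg4 and Lamp5, against 9.51% of all genes. By the probe set that represents the gene, 5 of the 8 were at or below noise on all OMN arrays and 4 on all DL arrays. Over all genes these shares were 23.4% and 24.2%, and the members were picked as low there. The median log2 difference of the 8 was 3.18 for L5 minus OMN, 2.94 for L5 minus DL and 0.20 for DL minus OMN, beside 0.01, 0.06 and -0.04 over all genes. For DL minus OMN it was -0.02 without OMN array 2 and 0.43 without DL array 2, so its sign is not settled.

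**Figure D2:**
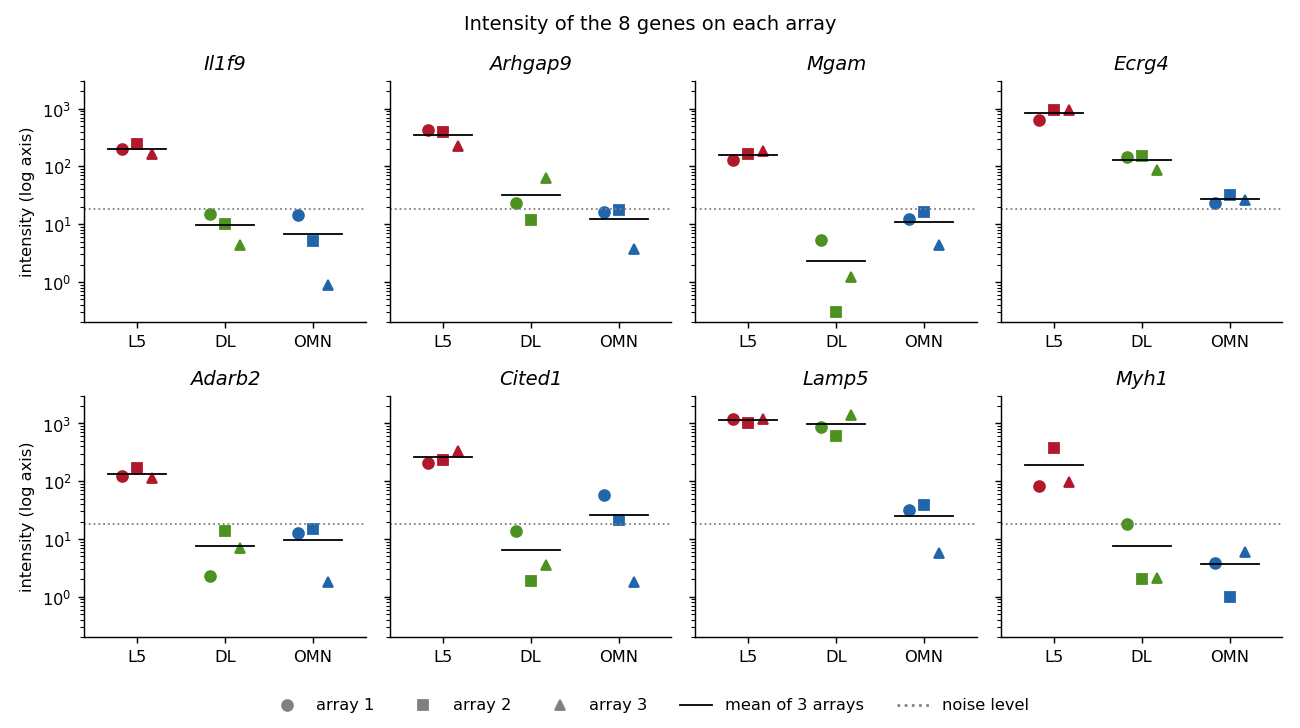
Intensity (log axis) of each gene on the 3 arrays of L5, DL and OMN. Symbols give the array number, bars the mean of 3 arrays and the dotted line the noise level. Lamp5 is bright in L5 and DL, Ecrg4 steps down over the pools, and the other 6 genes are higher on each L5 array than on any other array.

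Over probe sets, 16 of the 17 had all L5 arrays above all OMN arrays and 14 had them above all DL arrays. The exceptions were 1452465_at of Myh1 in both cases and, against DL, 1427520_a_at of Myh1 and the probe set of Lamp5. Against OMN, 1427520_a_at is counted although its L5 arrays 1 and 3, at 13.5 and 18.1, lay below noise, where values have no order. The genes were picked on these values and no share over all probe sets was computed, so these counts are read no further. The brightest probe set of a gene gave the largest log2 difference to OMN for Ecrg4, Adarb2, Arhgap9 and Myh1. On a scale with 16 added, dim probe sets have compressed differences, and they were not compared further.

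**Figure D3:**
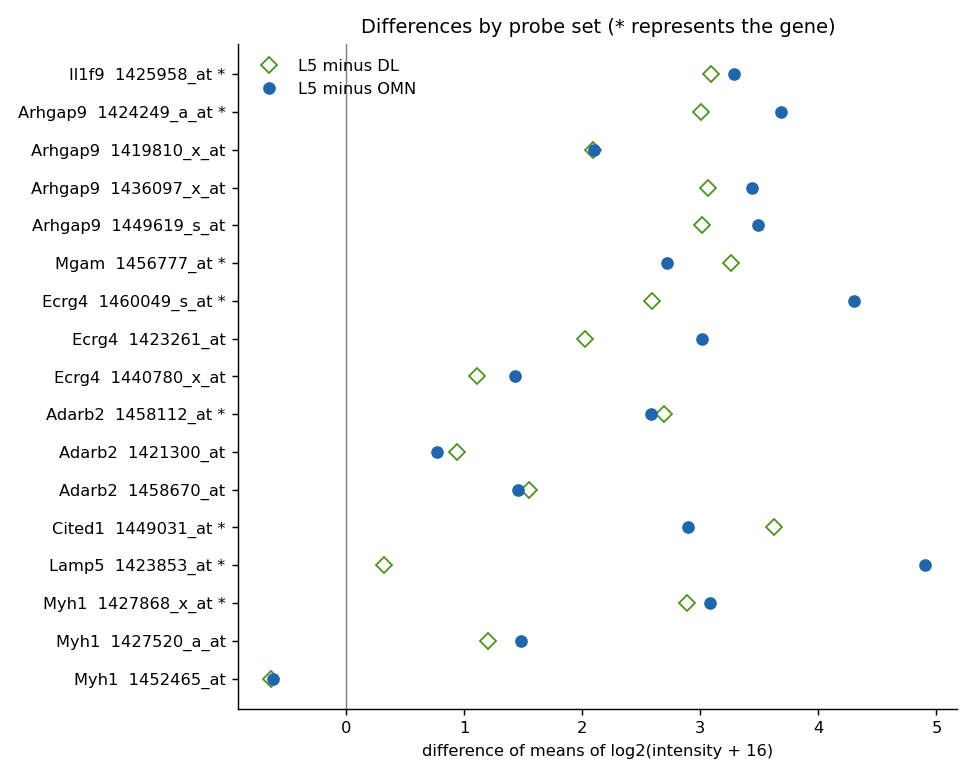
Difference of the means of log2(intensity + 16) for each of the 17 probe sets, as L5 minus OMN (filled circles) and L5 minus DL (open diamonds). Stars mark the probe set that represents the gene. The 4 probe sets of Arhgap9 lie to the right of 0 and 1 probe set of Myh1 to the left.

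Within L5 the 8 genes peaked on different arrays. The highest L5 value fell on array 1 for 2 genes, on array 2 for 3 and on array 3 for 3. Over the 9 arrays, Pearson's r between pairs of the 8 ran from 0.389 to 0.971 over 28 pairs, with a median of 0.891. These arrays form 3 pools from the same 3 animals, and the genes were picked on the contrast between the pools.

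Genes with the most similar profiles were sought among 9549 genes with a pool mean above 100, by Pearson's r of log2(intensity + 16) over the 9 arrays, as a description. For the mean profile of the 8, these were Rars (r = 0.98), Tmtc1, Agtr2, Tmem255a, Acadvl and Htra1 (r = 0.965). Their steps differed in size. Agtr2, the type 2 angiotensin receptor, was at 236 ± 27.1 in L5, 35.6 ± 15.5 in DL and 25.8 ± 5.78 in OMN (SD, n = 3). Rars, an arginyl-tRNA synthetase present in all cells, was at 952 ± 12.4, 720 ± 18 and 690 ± 49.7 in the same pools.

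By gene, the closest profiles to Il1f9 were those of Rars, Agtr2 and H1f4, to Arhgap9 those of Tubb4b, Hspa12a and Kcnj14, and to Mgam those of Nkiras1, Lgmn and Arl16. Kcnj14, an inward rectifier potassium channel, was at 1973 ± 90.7 in L5, 396 ± 194 in DL and 277 ± 77.6 in OMN. Like Arhgap9, it had its highest DL value, 619.7, on array 3. The closest to Ecrg4 were Fbxo2 (r = 0.994), Cdk2ap1 and Ndfip1, all with DL between L5 and OMN. The closest to Adarb2 were Npr3, Egln3 and Rars, with Npr3, the clearance receptor for natriuretic peptides, at 712 ± 56.6 in L5, 125 ± 76.4 in DL and 102 ± 30.6 in OMN. Egln3, an oxygen-sensing hydroxylase, was at 1115 ± 188 in L5, 121 ± 73.8 in DL and 104 ± 18.2 in OMN.

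For Cited1 the nearest were Antkmt, Lancl1 and Alg5, and for Myh1 Yars, Cgnl1 and Arl16, with a top r of 0.962. The profile nearest to Lamp5 was that of Crabp1 (r = 0.988), which binds retinoic acid in the cell. Crabp1 was at 1236 ± 261 in L5, 1313 ± 553 in DL and 64.6 ± 27.3 in OMN, and shared with Lamp5 its highest value on DL array 3. Arpp19 and Scg2 followed.

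The paralogs and partners of the 8 genes were listed by function. Their share called was near that of all genes between L5 and OMN, and above it in both comparisons with DL. Of 101 listed genes 93 were measured, 14 of them at or below noise on every array. Limma, with p adjusted over all 18193 genes, called 2 of 93 (2.15%) between L5 and OMN, Htr2c above and Chn2 below, against 2.17% of all genes. Between L5 and DL it called 5 of 93 (5.38%), against 2.55% of all genes, with Srgap2 and Kcna1 above and 3 below. Between DL and OMN it called 7 of 93 (7.53%), against 3.02% of all genes (1.37% higher and 1.65% lower in DL), with 3 above and 4 below. The median log2 difference of the 93 was 0.01, 0.10 and -0.05 in these comparisons.

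These counts changed when an array was left out, and so did those over all 18193 genes. Over all genes, L5 minus OMN fell from 394 calls to 83 to 100 without an L5 or OMN array, and to 318 to 375 without a DL array. With any array left out, L5 minus DL fell from 464 to between 55 and 259, and DL minus OMN from 550 to between 186 and 370. The related genes are given beside that general loss of calls. Between L5 and OMN 0 related genes were called without any of the L5 or OMN arrays in turn, 1 without DL array 1 and 2 without DL array 2 or 3. Between L5 and DL 1 was called without any L5 array or without DL array 1, 2 without DL array 3, OMN array 2 or OMN array 3, and 3 without DL array 2 or OMN array 1. Between DL and OMN 2 were called without any OMN array, 3 without DL array 1, DL array 2 or L5 array 2, 4 without DL array 3, and 5 without L5 array 1 or 3. Without DL arrays 1 and 3 together, which leaves 1 DL array, 0 related genes were called in either comparison with DL, and of all 18193 genes 0 were called for L5 minus DL and 128 for DL minus OMN.

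**Figure D4:**
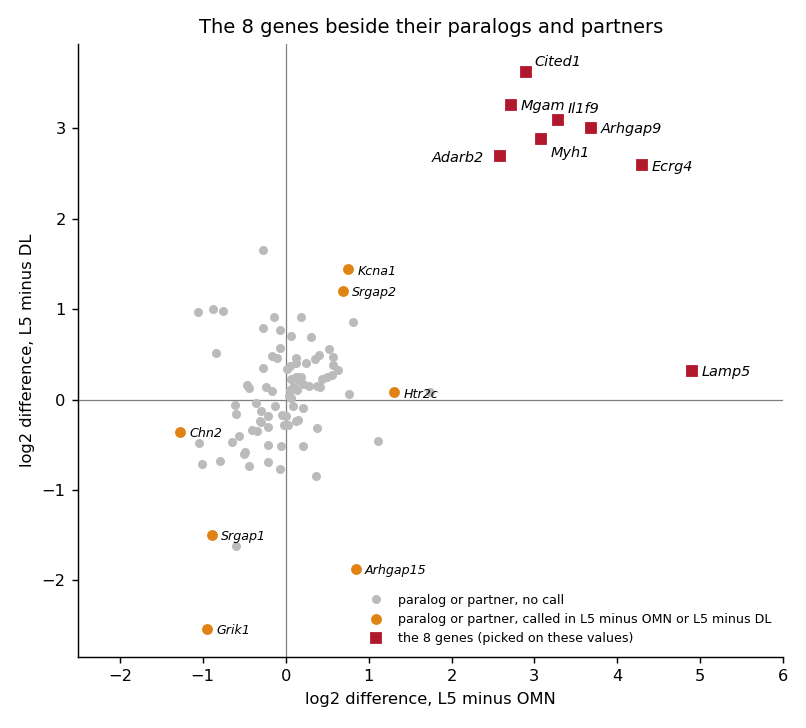
Log2 differences L5 minus OMN (x axis) and L5 minus DL (y axis) for the 8 genes (squares) and 93 paralogs and partners (circles, orange where limma called them in either comparison). Lamp5 lies near 0 on the y axis, the other 7 genes lie at the upper right, and the paralogs lie around the origin.

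The receptor and most ligands of the family of Il1f9 were dim. Il1rl2, the receptor subunit to which interleukin-36 binds, was at 9.17 ± 8.45 in L5, 5.37 ± 6.13 in DL and 1.90 ± 1.15 in OMN, with L5 array 1 (18.9) as the single array above noise, while its co-receptor Il1rap was at 57.4 ± 22.1, 69.4 ± 44.7 and 46.0 ± 9.18. Il1f5, Il1f6, Il1f8, Il1f10, Il1a, Il1b and Il1rn, ligands or antagonists of the family, did not pass the noise level on any array. Of the 21 measured genes on this list, 0 were called between L5 and either pool (2 and 3 had an unadjusted p under 0.05 against OMN and DL). Over all genes the shares called were 2.17% against OMN and 2.55% against DL, so this 0 is read no further. Il1rapl1, a synaptic member of the receptor family, was lower in DL, at 45.8 ± 8.91 against 235 ± 35.4 in OMN (log2 difference -2.02 ± 0.34, limma adjusted p = 0.0262).

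Among GTPase regulators, the close relative Arhgap15 had a pattern unlike that of Arhgap9. It was lower in L5 than in DL, at 53.2 ± 11.8 against 244 ± 79.7 (log2 difference -1.87 ± 0.28, limma adjusted p = 0.0219), and higher in DL than in OMN, where it was at 22.3 ± 3.98 (log2 difference 2.72, adjusted p = 0.00398). With its probe sets averaged these differences were -1.03 and 1.75, and without DL arrays 1 and 3 they were -1.25 (adjusted p = 0.182) and 2.10 (adjusted p = 0.0731). Arhgap12 was at 1363 ± 90.3 in L5, 1727 ± 115 in DL and 1809 ± 178 in OMN, and Arhgap27 at 137 ± 69.3, 232.5 ± 178 and 97.5 ± 27.4, with no call. Chn2, a Rac-inactivating chimaerin, was lower in L5 than in OMN (137 ± 17.3 against 353 ± 27.9, log2 difference -1.27 ± 0.19, adjusted p = 0.0252). Srgap2, a regulator of neuronal process growth, was higher in L5 (523 ± 58.8 against 223 ± 67.0 in DL, adjusted p = 0.0389), and its relative Srgap1 was lower in L5 (151 ± 62.7 against 469 ± 214 in DL, adjusted p = 0.0396). The call on Srgap1 was lost without the replicate block (adjusted p = 0.0795) and with its probe sets averaged (log2 difference -1.04, adjusted p = 0.193). Rac1 and Cdc42, GTPases that Arhgap9 can act on, were bright in all pools.

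The editing enzymes Adarb1 and Adar were not called. Adarb1, which edits glutamate receptor transcripts, was at 420 ± 160 in L5, 304.5 ± 186 in DL and 739 ± 196 in OMN, and Adar at 198 ± 47.4, 192.5 ± 105 and 277 ± 88.9. Among the listed transcripts known to be edited, the serotonin receptor gene Htr2c was higher in L5, at 316.5 ± 49.8 against 118 ± 14.8 in OMN (log2 difference 1.31 ± 0.23, limma adjusted p = 0.0367), and also higher in DL, at 299 ± 50.3 (adjusted p = 0.0363). Grik1, a kainate receptor subunit, was lower in L5, at 166.5 ± 13.1 against 1067 ± 276 in DL (log2 difference -2.54 ± 0.23, adjusted p = 0.00493), and higher in DL than in OMN (log2 difference 1.59, adjusted p = 0.0153). With all probe sets of Grik1 averaged, both calls were lost, at -1.29 (adjusted p = 0.0605) and 1.00 (adjusted p = 0.119). Kcna1, a potassium channel, was higher in L5 than in DL (1709 ± 179 against 617 ± 42.2, adjusted p = 0.0177), and Gria3, an AMPA receptor subunit, was lower in DL than in OMN (575 ± 49.9 against 1214 ± 89.1, adjusted p = 0.0314).

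In the CITED family, Cited2 was bright in all pools with another order from Cited1. It was lower in DL, at 249 ± 54.0 against 947 ± 81.1 in OMN (log2 difference -1.88 ± 0.22, limma adjusted p = 0.0061), and stood at 521 ± 148 in L5. Cited4 was below noise on every array. The acetyltransferase genes Crebbp and Ep300, whose products Cited1 binds, had no call.

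No listed relative of Mgam, Lamp5 or Myh1 was called between L5 and another pool. With 2.17%, 2.55% and 3.02% of all genes called for L5 minus OMN, L5 minus DL and DL minus OMN, lists this short are read no further. Of 9 measured genes of carbohydrate digestion, 0 were called (limma, with 0, 1 and 0 at an unadjusted p under 0.05 in these comparisons). Gaa, the lysosomal alpha-glucosidase, was at 707 ± 169 in L5, 1075 ± 202 in DL and 1004 ± 210 in OMN. Lamp1 was at 4849 ± 722, 4341 ± 211 and 3708 ± 321 in these pools and Lamp2 at 1003 ± 142, 1444 ± 281 and 864 ± 97.5, neither with a call (of the 4 LAMP genes measured, 1, 0 and 1 had an unadjusted p under 0.05). Of 11 other myosin heavy chains 1 was called between DL and OMN, where 3.02% of all genes were called. It was Myh7b, lower in DL at 51.7 ± 12.6 against 209 ± 42.4 in OMN (log2 difference -1.73 ± 0.30, limma adjusted p = 0.0304). Myh2, a fast muscle chain, was at 16.1, 252.3 and 47.4 in L5, 37.3, 243.8 and 17.5 in DL and 3.6, 7.5 and 15.5 in OMN, high on array 2 of L5 and of DL. Myh4 was below noise on every array, and Myh8 was at 121 ± 63.2 in L5, 60.7 ± 25.8 in DL and 126 ± 57.1 in OMN.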

How the data were processed

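The values are intensities on 9 Affymetrix Mouse Genome 430 2.0 arrays, deposited by the authors on a linear scale. Per the labels' protocols, at least 1.5 ng of RNA from 12 µm sections was amplified and biotin-labelled. Trimmed by 2% at each end, every array averaged 250, a common scaling target. How probe sets were summarised is not given in the sources. Of 45101 probe sets, 64 controls were left out, and 34945 named 1 gene. Values were converted to log2(intensity + 16). One limma fit (version 3.58.1, R 4.3.3) took all 9 arrays, with pool as the factor and replicate number as a block, p was adjusted by Benjamini-Hochberg over 18193 genes, and genes under 0.05 were called. The labels say "bio rep" but tie no number to an animal. The fit was tested on simulated data.

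Folds are geometric means. Where an array of the dimmer pool was at or below 18.3, its value was raised to 18.3 and the fold is a lower bound. That level was set after the values had been seen. Arrays carry no information on RNA per cell, and their number limits the precision. The members, gene lists and noise level were chosen with earlier results of these data known. Named genes were the 8 members, related genes called in any comparison (up to 6 per list and comparison), fixed closest paralogs, and the genes nearest in profile (3 per member, 6 for their mean, provisional names passed over). Sis, on that list of paralogs, was not analysed here. Alternatives are given in the closing section.

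Gapdh intensities at the 3' end over those at the 5' end, which rise as RNA degrades, came to 2.45 to 2.53 in L5, to 3.27, 2.44 and 3.75 in DL and to 2.33 to 2.67 in OMN. The same ratio for actin was 0.9 to 0.934 in L5 and in OMN, and 0.934, 0.807 and 0.995 in DL. By actin, DL array 1 was thus not set apart.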

Additional observations from a re-analysis of the deposited data

How the results depend on the processing

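The median log2 difference of the 8 genes for L5 minus OMN was 4.90 with a pseudocount of 1 and 1.88 with 64, and for L5 minus DL 4.28 and 1.80. A larger pseudocount shrinks differences from dim values by construction. For L5 minus DL it was 2.35 with the mean over all probe sets and 3.37 without DL arrays 1 and 3, which had the higher Gapdh ratios. For DL minus OMN it was 0.629 with a pseudocount of 1 and -0.155 without DL arrays 1 and 3. When each array was left out in turn the medians ran from 3.02 to 3.51 for L5 minus OMN, 2.67 to 3.07 for L5 minus DL and -0.0181 to 0.427 for DL minus OMN. Of 480 recomputed values of single members, 44 moved by more than the SD of the differences between equally numbered arrays. Many of the 480 could not move. Changes to the block, the variances, the filter or an array of the third pool leave a difference as it was. The count is therefore no measure of robustness. The count of related genes called in L5 minus OMN was 0 with a pseudocount of 1, and 4 under either robust trended variances or array weights. In L5 minus DL it was 1 with a pseudocount of 1, 8 with a pseudocount of 64, 8 with robust trended variances, 3 under array weights, 2 with the mean over probe sets, and 0 when only the pools compared were fitted or DL arrays 1 and 3 were left out. In DL minus OMN it was 2 with a pseudocount of 1, 2 when only the pools compared were fitted and 0 without DL arrays 1 and 3. With each array left out in turn these counts ran from 0 to 2, 1 to 3 and 2 to 5. None of the 14 called results on related genes kept its call in all alternatives. For L5 minus DL none could, as the setting with a single DL array calls no gene in that comparison. This count is therefore read no further, and the cause was not tested. No called difference of a related gene turned its sign.

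Without the replicate block the related genes called were 2, 6 and 9, Srgap1 losing its call (adjusted p = 0.0795), and all genes called were 579, 806 and 716 in place of 394, 464 and 550, with 374, 435 and 508 of the calls shared. Over all alternatives, leaving out arrays included, the calls among all genes ran from 83 to 946, 0 to 1153 and 120 to 880, highest with robust trended variances. Deviations from pool means of equally numbered arrays correlated at -0.0216 to 0.0366, so the data give no hint that the numbers pair the arrays. Without DL arrays 1 and 3 the single DL array is assumed to vary like the others. With arrays centred on their medians, 337 of 555 calls were higher for DL minus OMN in place of 249 of 550, and 197 of 497 for L5 minus DL in place of 232 of 464, with the median of all genes for DL minus OMN at 0.114 in place of -0.0363. Below 18.3, signal over background limits every statement on DL and OMN to a bound.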
